A study of Bos taurus with 22 samples.

Results

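The 9 transcripts described here had some of the smallest p-values for a difference between Holstein and Angus heifers in circulating white blood cells. They were chosen by the breed comparison itself, so their breed values are given as a description with no test. The 9 are 5 genes with a symbol, namely SMARCAD1 (ENSBTAG00000017061), BAP1 (ENSBTAG00000045817), STX7 (ENSBTAG00000017139), C3H1orf122 (ENSBTAG00000045776) and C25H7orf50 (ENSBTAG00000051685), and 4 genes with an Ensembl identifier alone, ENSBTAG00000044063, ENSBTAG00000048798, ENSBTAG00000008435 and ENSBTAG00000051259. The counts held 27607 genes, of which 13535 had more than 1 count per 1000000 counts of the library (CPM) in at least 5 heifers and were tested, and all 9 transcripts were among these.

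White blood cells, which include granulocytes, lymphocytes and monocytes, were taken from purebred heifers at their first artificial insemination, and polyadenylated RNA was sequenced as 1 library per heifer. The 12 Angus heifers averaged 14 months of age and had received progesterone for 7 days to synchronise estrus, and the 10 Holstein heifers averaged 12 months and had received it for 5 days. Fertile heifers (5 Angus and 5 Holstein) calved from the first service. Sub-Fertile heifers were 7 Angus that did not conceive after repeated services and exposure to a bull, and 5 Holsteins that needed at least 4 services or never conceived. Breed therefore cannot be told apart from the average age, the synchronisation treatment or the rearing of the heifers. The study states that management differs between beef and dairy heifers. It describes feed exposure as equal within each of these kinds, with no comparison between them. Total counts per heifer ranged from 12182400 to 49228035. They tended to be lower in Holstein heifers, most of which had 17682328 or fewer, while most Angus heifers had 20996745 or more. Each heifer keeps a number here: 1 to 5 were Holstein Sub-Fertile, 6 to 10 Holstein Fertile, 11 to 17 Angus Sub-Fertile and 18 to 22 Angus Fertile.

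SMARCAD1 is an ATP-dependent chromatin remodeler of the SNF2 family, known for the upkeep of silent chromatin after replication and for the repair of DNA breaks. BAP1 is a deubiquitinase that takes off the ubiquitin that Polycomb complexes place on a histone, and it is a tumour suppressor. STX7 is a syntaxin, one of the SNARE proteins that fuse membranes, and it acts on late endosomes and lysosomes, the compartments in which leukocytes break down what they take up. C3H1orf122 and C25H7orf50 are cattle counterparts of human open reading frames whose roles are little known, and the other 4 are left undescribed because no name was at hand for them.

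In the Ensembl annotation of the ARS-UCD1.2 assembly the genes with a position are protein coding and lie on different chromosomes: C3H1orf122 at chr3:108107987-108109056, SMARCAD1 at chr6:30308257-30398980, STX7 at chr9:70392486-70449183, ENSBTAG00000048798 at chr17:35321748-35476298, BAP1 at chr22:48479063-48487708 and C25H7orf50 at chr25:41677868-41745149. Some of the genes share their place with others. By name in a RefSeq table of another assembly, C3H1orf122 overlaps YRDC, C25H7orf50 overlaps GPER1, GPR146, MIR2389 and MIR339A, and STX7 overlaps LOC132346122 and LOC112448201. No source used here states whether strand was used in counting. The authors tallied fragments of ambiguous assignment apart, as unassigned. These 3 genes may thus have lost fragments that they share with their neighbours, or may hold some of theirs. No overlapping gene was listed for SMARCAD1 or BAP1. Of the 2 genes on each side of the 5 members with a symbol, in the order of that table, 1 could be matched by name. It was SEMA3G, a semaphorin beside BAP1 with 1 gene between them, with a breed log2 fold change of −0.37 (edgeR unadjusted p 0.0378). The others had no name that joined them to the counts, so whether they were measured was not seen.

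The members were selected on the Wald test of DESeq2 for breed, which was adjusted for fertility group. At an adjusted p under 0.05 this test called 10 genes of 13532, or 0.0739%. The 9 members are these genes without DNAI7, a dynein gene that was also higher in Holstein heifers. Of the members, 5 were higher in Holstein heifers (ENSBTAG00000051259, ENSBTAG00000044063, SMARCAD1, ENSBTAG00000048798 and STX7) and 4 were lower (C3H1orf122, C25H7orf50, ENSBTAG00000008435 and BAP1). The values that chose them ran from an adjusted p of 0.00557 for C3H1orf122 to 0.0482 for ENSBTAG00000051259 (DESeq2), and the first gene outside was DCTN3, a dynactin subunit, at 0.0612. After Benjamini-Hochberg adjustment the edgeR quasi-likelihood test called 0 genes for breed (lowest adjusted p 0.437), against 1440 genes, or 10.6%, at an unadjusted p under 0.05.

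The libraries were not all equally distant from one another. Heifers fell into 8 close pairs, each of 2 heifers nearest to one another in transcript abundance, with a biological coefficient of variation between 0.0378 and 0.0828 over abundant genes. Heifer 1 was paired with 11, 5 with 6, 7 with 16, 8 with 12, 10 with 18, 13 with 22, 14 with 20 and 15 with 19. Neither the labels nor the study names such a pairing, and 4 of the pairs (those of heifers 1, 7, 8 and 10) join a Holstein with an Angus heifer. The heifers of a pair may not be independent samples, and p-values take them as such. A breed difference estimated within the pairs alone, with a term for fertility group, is therefore given beside each value below. The pairs were picked for likeness in these same counts, which by itself tends to make differences within them smaller. The values within pairs are thus no independent check of a difference. Of the 4 pairs of 2 breeds, 2 (heifers 7 and 16, 8 and 12) set a Fertile Holstein against a Sub-Fertile Angus heifer, so the sign of a single pair mixes breed with fertility group.

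SMARCAD1 transcripts were more abundant in Holstein heifers of both fertility groups. As in every result from bulk RNA, fewer cells of a type and less RNA per cell cannot be told apart. Fertile Angus heifers had 34.8, 41.6, 45.5, 48.4 and 49.2 CPM, and Fertile Holstein heifers 45.3, 49.5, 52.5, 53.7 and 61.7 CPM. In the Sub-Fertile heifers Angus ranged from 45.5 to 57.0 CPM with a median of 47.1, and Holstein had 48.8, 56.2, 58.5, 60.0 and 64.1 CPM. Among the Fertile, Holstein heifer 10 was the single one inside the Angus range, while 3 Angus heifers lay inside the Holstein range. Among the Sub-Fertile, Angus heifer 12 was the single one inside the Holstein range, and 2 Holstein heifers lay inside the Angus range. The other 6 Sub-Fertile Angus heifers lay at 47.4 CPM or below. Over both fertility groups together, 10 Angus and 6 Holstein heifers lay inside the range of the other breed. Means were 46.3 ± 5.10 CPM (SD, n = 12) in Angus and 55.0 ± 6.13 CPM (SD, n = 10) in Holstein heifers. The fitted log2 fold change of Holstein over Angus was 0.26 ± 0.065 (SE), an abundance 19.7% higher, with 0.25 ± 0.098 in Fertile and 0.26 ± 0.090 in Sub-Fertile heifers. Holstein was the higher heifer in each of the 4 close pairs of 2 breeds, but by less, and within pairs the log2 fold change was 0.09 ± 0.050.

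BAP1 had the smallest breed difference of the 9 and one of the smallest spreads between heifers. Fertile Angus heifers had 139, 145, 147, 159 and 160.4 CPM, and Fertile Holstein heifers 126, 132, 132, 134 and 151 CPM. Sub-Fertile Angus heifers ranged from 125 to 153 CPM with a median of 142, and Sub-Fertile Holstein heifers had 127, 128, 130.1, 132 and 135 CPM. Heifer 10, at 151 CPM, was the single Fertile Holstein inside the Angus range, and 3 Fertile Angus heifers lay inside the Holstein range. All 5 Sub-Fertile Holsteins lay inside the Sub-Fertile Angus range, because Angus heifer 16, at 125 CPM, was below them all. The means were 145 ± 9.86 CPM (SD, n = 12) in Angus and 133 ± 7.09 CPM (SD, n = 10) in Holstein heifers, and the fitted log2 fold change was −0.13 ± 0.041 (SE), or −8.91%. It was −0.15 ± 0.061 in Fertile and −0.12 ± 0.056 in Sub-Fertile heifers. In the close pairs Holstein was the lower heifer in 2 of 4, and the log2 fold change within pairs was −0.02 ± 0.051, smaller than its error.

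**Figure D1:**
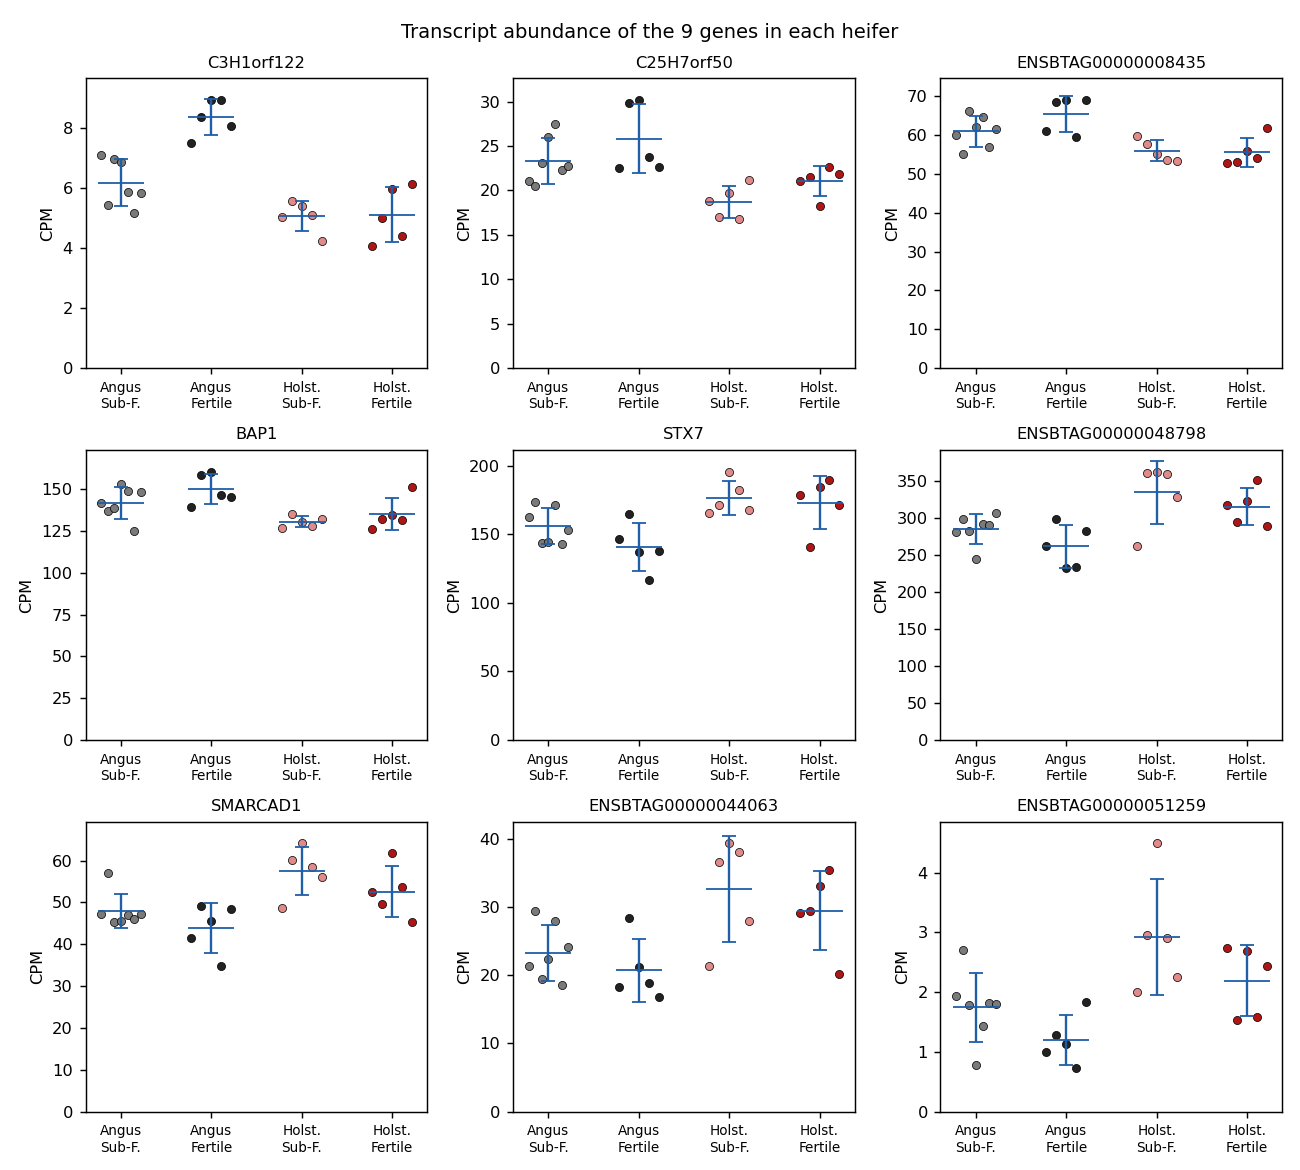
Transcript abundance (CPM, linear axis from 0) of each of the 9 genes in each of the 22 heifers, in the order of their breed difference from lowest to highest. Points are heifers in the order of their numbers within the 4 groups, and blue bars are the mean and SD of a group. C3H1orf122 in Fertile heifers is the single case in which the points of the breeds do not overlap within a fertility group.

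STX7, the endosomal syntaxin, was higher in Holstein heifers. The values of Fertile Angus heifers were 117, 137, 138, 147 and 165 CPM, and those of Fertile Holstein heifers 140.5, 172, 178, 185 and 189.9 CPM. Of the Fertile Holsteins heifer 7 alone, at 140.5 CPM, was inside the Angus range, and 2 Fertile Angus heifers were inside the Holstein range. Sub-Fertile Angus heifers lay between 143 and 174 CPM with a median of 153, and Sub-Fertile Holstein heifers had 166, 168, 171, 183 and 196 CPM. Here the breeds overlapped by 2 Angus and 3 Holstein heifers. The means of 150 ± 16.4 CPM (SD, n = 12) in Angus and 175 ± 15.5 CPM (SD, n = 10) in Holstein heifers gave a log2 fold change of 0.23 ± 0.061 (SE), or 17.6% more transcript. It was 0.30 ± 0.090 in Fertile and 0.18 ± 0.083 in Sub-Fertile heifers. Holstein was higher in 3 of the 4 close pairs, and the estimate within pairs was 0.10 ± 0.048.

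C3H1orf122 stood first by the rule, and it alone had breeds that did not overlap within a fertility group. Fertile Angus heifers had 7.52, 8.09, 8.37, 8.94 and 8.95 CPM, and Fertile Holstein heifers 4.07, 4.41, 5.00, 5.98 and 6.14 CPM, so each Fertile Angus heifer was above every Fertile Holstein. Sub-Fertile Angus heifers were lower than the Fertile ones of their breed, at 5.17 to 7.11 CPM with a median of 5.88. The Sub-Fertile Holstein heifers had 4.24, 5.03, 5.12, 5.41 and 5.57 CPM, all inside the range of the Fertile Holsteins. The Sub-Fertile breeds overlapped by 2 heifers each, and no longer overlapped when the counts were scaled by TMM factors or by DESeq2 size factors. The means were 7.10 ± 1.32 CPM (SD, n = 12) in Angus and 5.10 ± 0.703 CPM (SD, n = 10) in Holstein heifers. The log2 fold change was −0.48 ± 0.097 (SE), or −28.2%, with −0.70 ± 0.130 in Fertile and −0.28 ± 0.121 in Sub-Fertile heifers. Holstein was the lower heifer in 3 of the 4 close pairs, all but that of heifers 8 and 12, and C3H1orf122 kept the most of its difference within pairs, −0.34 ± 0.119. Its counts, 60 to 440 fragments per heifer, carry a counting error of 7.69% at the median heifer.

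C25H7orf50 was lower in Holstein heifers by a like amount in both fertility groups. The Fertile Angus values were 22.6, 22.7, 23.8, 29.9 and 30.2 CPM against Fertile Holstein values of 18.3, 21.01, 21.5, 21.8 and 22.6 CPM. These groups met at their edges: the highest Holstein, heifer 9, and the lowest Angus, heifer 18, had the same value to 3 digits. Sub-Fertile Angus heifers ranged from 20.5 to 27.5 CPM with a median of 22.8, and Sub-Fertile Holstein heifers had 16.8, 17.04, 18.8, 19.7 and 21.1 CPM. Of these Holsteins heifer 5 alone was inside the Angus range, and 2 Sub-Fertile Angus heifers were inside the Holstein range. Means of 24.3 ± 3.27 CPM (SD, n = 12) in Angus and 19.9 ± 2.06 CPM (SD, n = 10) in Holstein heifers gave a log2 fold change of −0.31 ± 0.070 (SE), or −19.3%. The change was −0.30 ± 0.104 in Fertile and −0.32 ± 0.097 in Sub-Fertile heifers. It had the same sign in each of the 4 close pairs, with −0.14 ± 0.069 within pairs.

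Of the 4 genes without a symbol, ENSBTAG00000051259 had the widest breed difference and the fewest counts. Fertile Angus heifers had 0.739, 1.0, 1.14, 1.28 and 1.84 CPM, and Fertile Holstein heifers 1.53, 1.58, 2.44, 2.68 and 2.74 CPM. Sub-Fertile Angus heifers ranged from 0.776 to 2.70 CPM with a median of 1.80, and Sub-Fertile Holstein heifers had 2.0, 2.26, 2.91, 2.95 and 4.49 CPM. In each fertility group a single Angus heifer reached into the Holstein range, heifer 22 among the Fertile and heifer 12 among the Sub-Fertile. In each group 2 Holstein heifers lay inside the Angus range. The log2 fold change was 0.80 ± 0.192 (SE), or 73.8% more, and 0.31 ± 0.248 within close pairs, where heifers 10 and 18, at 2.44 and 1.0 CPM, were the widest of the 4 pairs and 2 pairs had the other sign. Its counts ran from 9 to 161 fragments, so counting alone gives an error of 14.4% at the median heifer.

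ENSBTAG00000044063 was the most variable of the higher genes for its level. Its Fertile Angus values were 16.8, 18.2, 18.9, 21.2 and 28.4 CPM and its Fertile Holstein values 20.2, 29.2, 29.4, 33.1 and 35.3 CPM. Sub-Fertile Angus heifers ranged from 18.6 to 29.3 CPM with a median of 22.4, and Sub-Fertile Holstein heifers had 21.3, 27.9, 36.6, 38.0 and 39.3 CPM. Holstein heifers 10 and 1, each the lowest of its group, sat among the Angus values, as did heifer 5 of the Sub-Fertile. Heifers 10 and 1 both belong to close pairs with an Angus heifer. Inside the Holstein range lay 2 Fertile and 5 Sub-Fertile Angus heifers. The log2 fold change was 0.49 ± 0.120 (SE), or 40.9% more, and 0.22 ± 0.096 within pairs, where Holstein heifer 7 at 29.4 CPM against Angus heifer 16 at 18.6 CPM was the widest pair and heifers 1 and 11 were equal at 21.3 CPM.

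ENSBTAG00000048798 was the protein-coding gene on chromosome 17. Fertile heifers had 233, 233, 263, 282 and 299 CPM in Angus and 289, 295, 318, 324 and 351 CPM in Holstein. Sub-Fertile heifers ranged from 245 to 306 CPM with a median of 291 in Angus, and had 262, 328, 360.0, 361 and 363 CPM in Holstein. With Holstein heifer 1, at 262 CPM, 6 Sub-Fertile Angus heifers lay inside the Holstein range. Without heifer 1 the Sub-Fertile breeds did not overlap. The log2 fold change was 0.25 ± 0.060 (SE), or 18.7% more, and 0.05 ± 0.048 within pairs.

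ENSBTAG00000008435, lower in Holstein heifers, showed a narrow spread like that of BAP1. Fertile heifers had 59.6, 61.0, 68.5, 69.0 and 69.0 CPM in Angus and 52.7, 53.2, 54.0, 56.0 and 61.8 CPM in Holstein. Sub-Fertile heifers lay between 55.1 and 66.2 CPM in Angus, with a median of 61.5, and had 53.4, 53.6, 55.2, 57.6 and 59.7 CPM in Holstein. Heifer 10, at 61.8 CPM, was again the single Fertile Holstein inside the Angus range, and 2 Fertile Angus heifers lay inside the Holstein range. With TMM factors or DESeq2 size factors the Fertile breeds did not overlap. The log2 fold change was −0.18 ± 0.045 (SE), or −11.5%, and −0.04 ± 0.050 within pairs.

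**Figure D2:**
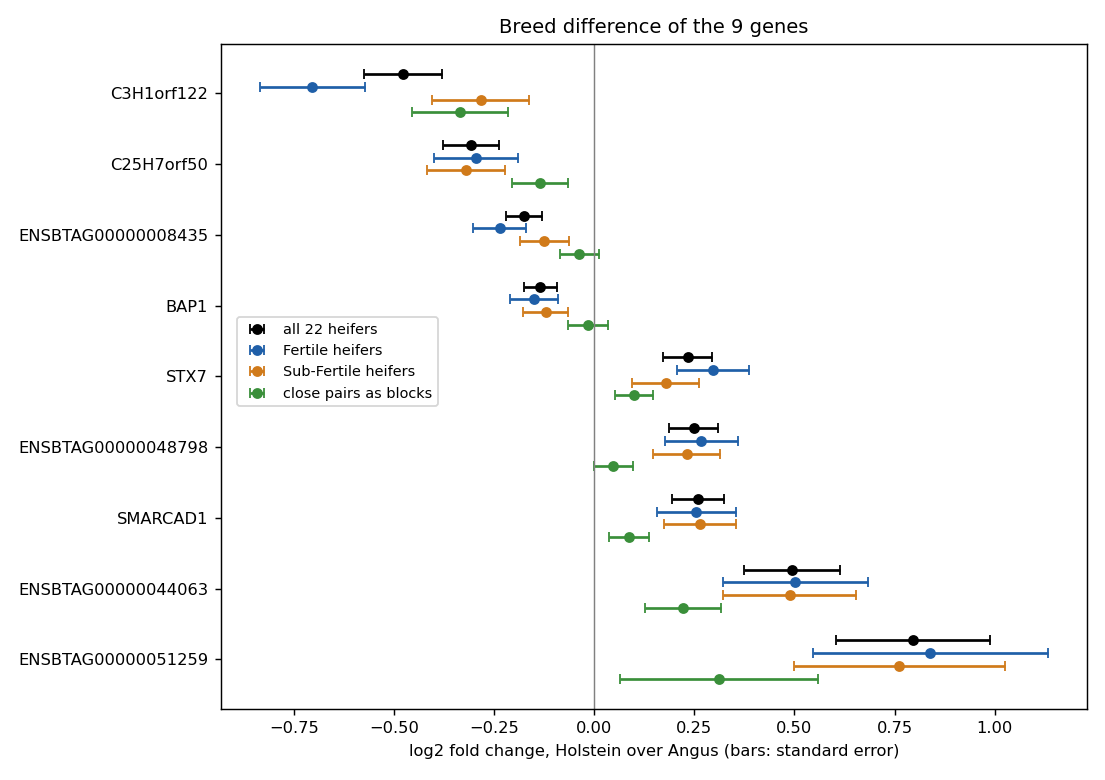
Breed difference (log2 fold change of Holstein over Angus, with its standard error) of the 9 genes over all 22 heifers, within Fertile heifers, within Sub-Fertile heifers, and with the 8 close pairs as blocks. Every estimate keeps its sign. Those within close pairs (green) lie nearer to 0 than those over all heifers, at −0.34 for C3H1orf122 and at −0.02 for BAP1. The pairs were picked for likeness in these same counts, which by itself tends to draw differences towards 0.

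Counted over the members, the breeds did not overlap in 1 of 9 among the Fertile heifers and in 0 of 9 among the Sub-Fertile heifers. Over all tested genes the breeds did not overlap in 2.37% among the Fertile and in 0.177% among the Sub-Fertile heifers, and in 0% in both groups with 1 direction. Since the breed contrast chose the members, nothing is read from these counts. Without Holstein heifer 10, singled out after the values were seen, the Fertile breeds did not overlap in 5 of 9 members (C3H1orf122, SMARCAD1, BAP1, ENSBTAG00000044063 and ENSBTAG00000008435). Heifer 10 also had the deepest library of the Fertile Holsteins, with 38118108 counts against 12393746 to 17682328 in the others. The part of depth in this overlap was not tested. Among the Sub-Fertile heifers the count was 2 without Angus heifer 12 (SMARCAD1 and ENSBTAG00000051259). The share of all tested genes without overlap was not computed with a heifer left out, so nothing is read from these counts either. Over all 22 heifers no member, and no tested gene, separated the breeds.

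**Figure D3:**
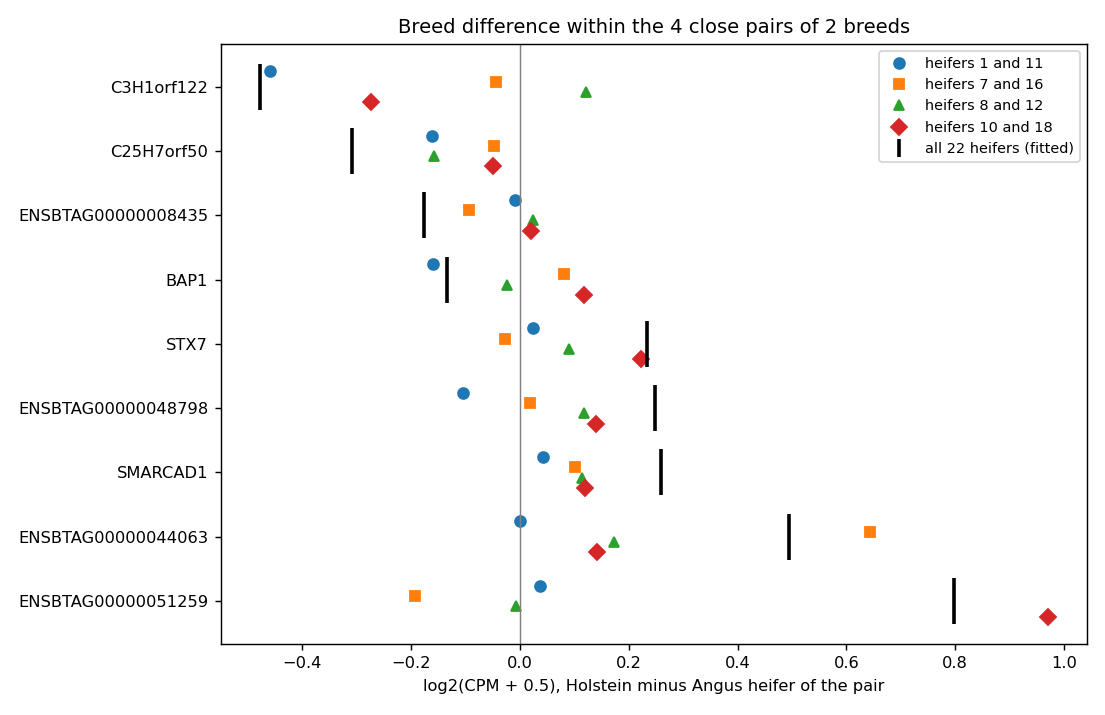
Difference in log2(CPM + 0.5) between the Holstein and the Angus heifer in each of the 4 close pairs of 2 breeds, for the 9 genes. Black bars are the fitted log2 fold changes over all 22 heifers. In the pairs of heifers 7 and 16 and of 8 and 12 the Holstein was Fertile and the Angus Sub-Fertile. The 4 points of SMARCAD1 and of C25H7orf50 lie on the side of their black bar, and those of BAP1 and ENSBTAG00000008435 lie on both sides of 0.

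The members were not the genes with the widest breed differences. For BAP1, 4246 tested genes, or 31.4%, had a larger absolute log2 fold change, and for ENSBTAG00000008435 20.9% did. At the other end, 0.983% of genes exceeded ENSBTAG00000051259, 2.79% ENSBTAG00000044063 and 3.0% C3H1orf122. The median absolute log2 fold change of all tested genes was 0.09. The spread between heifers, which also enters the p that chose the members, was small in those with small differences. The biological coefficient of variation was 8.19% for BAP1 and 8.26% for ENSBTAG00000008435, at percentiles 4.2 and 3.8 among the 500 genes nearest in level, and 15.1% for C3H1orf122, at percentile 13.8. ENSBTAG00000044063 was at percentile 84.4 with 19.8%, and the other 5 members lay between percentiles 29.2 and 50.6.

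The fertility comparison was not used to choose the members, though it shares the heifers and the spread of each gene with the breed comparison. For fertility edgeR called 0 genes after Benjamini-Hochberg adjustment (lowest adjusted p 0.9998), against 2.62% of tested genes at an unadjusted p under 0.05, and DESeq2 also called 0, against 3.91% unadjusted. At an unadjusted p under 0.05 stood 3 of the 9 members by edgeR and 5 by DESeq2. C3H1orf122 was higher in Fertile than in Sub-Fertile heifers, by 0.25 ± 0.096 on the log2 scale (SE; edgeR unadjusted p 0.0182). That of C25H7orf50 was 0.16 ± 0.069 (edgeR unadjusted p 0.0304), and that of ENSBTAG00000051259 was −0.46 ± 0.194 (edgeR unadjusted p 0.0268). All 3 had an adjusted p of 0.9998 over all tested genes in edgeR, and so did the other 6 members.

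The other members had fertility differences closer to their errors. For SMARCAD1 the Fertile minus Sub-Fertile difference was −0.13 ± 0.065 (SE, log2) and for BAP1 0.07 ± 0.041, and these 2 were the genes added by DESeq2 at its unadjusted p under 0.05. STX7 had −0.09 ± 0.062, ENSBTAG00000048798 had −0.11 ± 0.061, ENSBTAG00000044063 had −0.16 ± 0.121 and ENSBTAG00000008435 had 0.05 ± 0.045. The close pairs bear on these values too, since 6 of the 8 pairs join a Fertile with a Sub-Fertile heifer. With the pairs as blocks, C3H1orf122 was the member left at an unadjusted p under 0.05 in edgeR, with 0.32 ± 0.092 (SE; unadjusted p 0.00355, adjusted p 0.875), while C25H7orf50 was at 0.07 ± 0.054 and ENSBTAG00000051259 at −0.01 ± 0.195. SMARCAD1 and ENSBTAG00000044063 changed sign with the blocks, to 0.02 ± 0.040 and 0.01 ± 0.075. STX7 was at −0.04 ± 0.038, BAP1 at 0.04 ± 0.041, ENSBTAG00000048798 at −0.0076 ± 0.039 and ENSBTAG00000008435 at 0.05 ± 0.039.

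Whether the breed difference itself differed between Fertile and Sub-Fertile heifers was tested as an interaction, the breed log2 fold change in Fertile minus that in Sub-Fertile heifers. By edgeR with Benjamini-Hochberg adjustment 0 genes were called (lowest adjusted p 0.463), with 10.4% of tested genes at an unadjusted p under 0.05, and DESeq2 called 0 with 12.2% unadjusted. C3H1orf122 was the 1 member at an unadjusted p under 0.05, with an interaction of −0.42 ± 0.177 (SE; edgeR unadjusted p 0.0269, adjusted p 0.463). That count is near the shares over all tested genes, and nothing about the members is read from it. In Angus the mean was 8.37 ± 0.602 CPM (SD, n = 5) in Fertile and 6.18 ± 0.787 CPM (SD, n = 7) in Sub-Fertile heifers. The Holstein means were 5.12 ± 0.920 CPM in Fertile and 5.07 ± 0.513 CPM in Sub-Fertile heifers (SD, n = 5 each). The adjusted p of this interaction in edgeR and DESeq2 ranged from 0.206 to 0.959 over the alternatives tried, and with close pairs as blocks the interaction was −0.09. For the other 8 members the interaction was smaller than its error in 7, among them 0.12 ± 0.123 for STX7 and 0.08 ± 0.392 for ENSBTAG00000051259. ENSBTAG00000008435 had −0.11 ± 0.089 (SE; edgeR unadjusted p 0.224), the largest relative to its error after C3H1orf122.

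**Figure D4:**
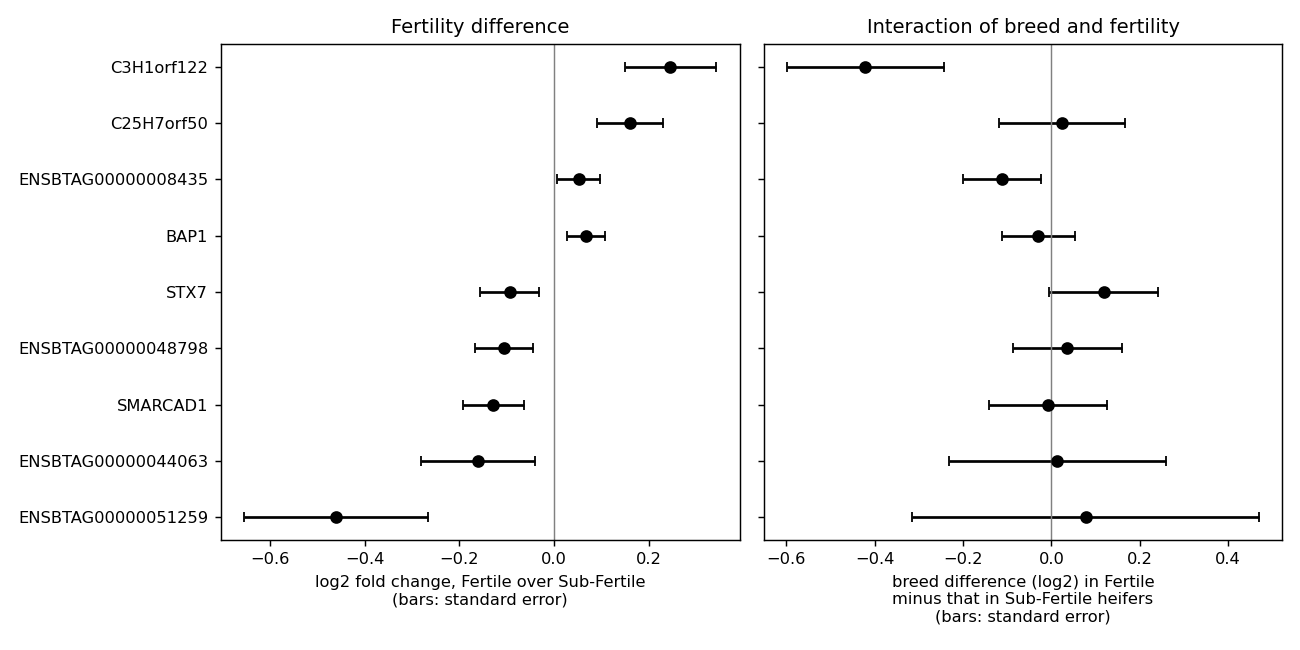
Fertility difference (left, log2, Fertile minus Sub-Fertile) and interaction of breed and fertility (right, the breed log2 fold change in Fertile minus that in Sub-Fertile heifers) of the 9 genes, with standard errors over 22 heifers. C3H1orf122 lies farthest from 0 relative to its error in both panels, at 0.25 and −0.42. Neither value had an adjusted p under 0.05 in edgeR.

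For correlations the members were set in 2 groups by the direction of their breed difference, with breed and fertility group taken out of log2(CPM + 0.5). Members of the same group mostly varied together, but not in every pairing. Over the 22 heifers the 10 pairings of genes higher in Holstein had a Pearson r of 0.22 to 0.69 (median 0.63), the highest being SMARCAD1 with ENSBTAG00000048798. The 6 pairings of genes lower in Holstein had an r of −0.08 to 0.64 (median 0.53), the highest being BAP1 with ENSBTAG00000008435 and the lowest C3H1orf122 with C25H7orf50. The 20 pairings across the groups lay between −0.38 and 0.15 (median −0.09). Spearman's rho ran from 0.17 to 0.72, from −0.05 to 0.64 and from −0.33 to 0.16 in the same order. These are descriptions over heifers that share close pairs and differ in depth.

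**Figure D5:**
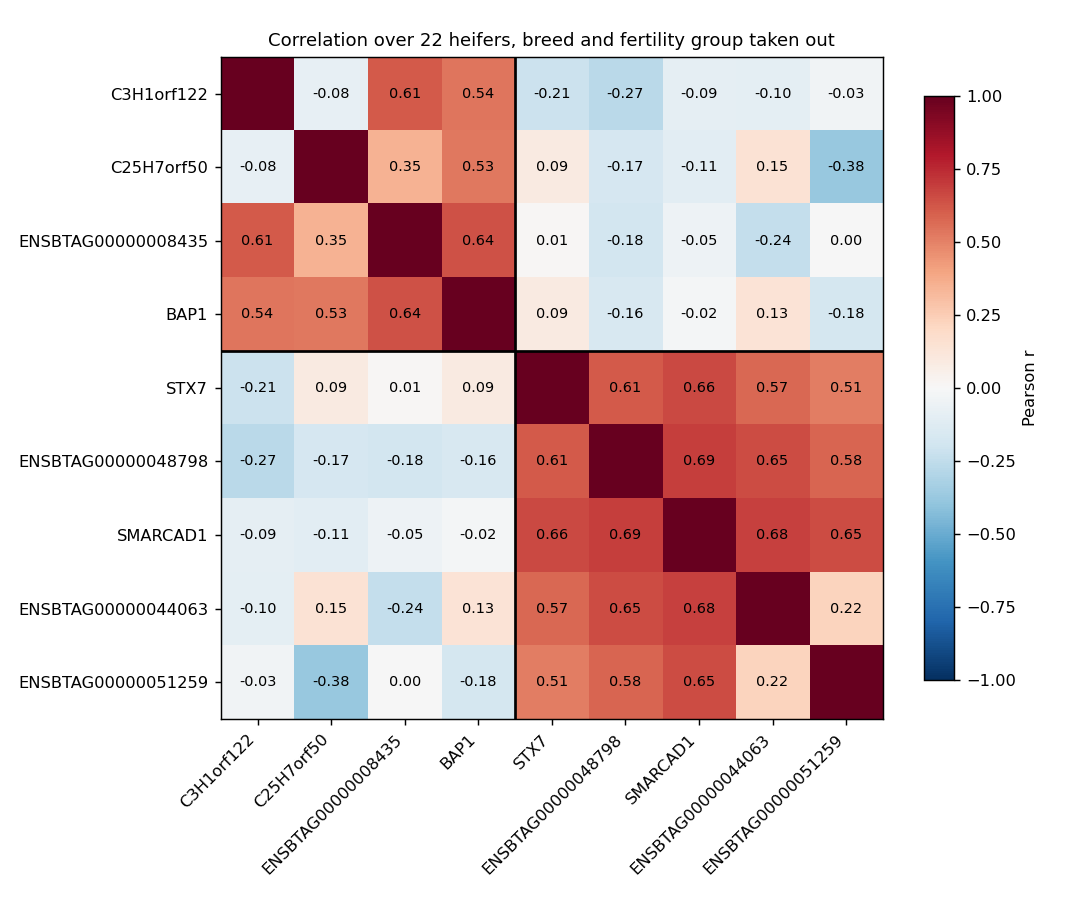
Pearson r between the 9 genes over 22 heifers, from log2(CPM + 0.5) with breed and fertility group taken out. The first 4 genes are those lower and the last 5 those higher in Holstein heifers, divided by black lines. The block of the higher genes holds r of 0.22 to 0.69, and the pairings across the lines lie between −0.38 and 0.15.

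The gene whose pattern over heifers was most like that of a member had an r of 0.81 to 0.93 by the same measure. Its name was at hand in 2 cases: CAMK2D, a calcium-dependent kinase, with ENSBTAG00000044063 (r = 0.93, rho = 0.91) and SMAD5, a transducer of bone morphogenetic protein signals, with ENSBTAG00000051259 (r = 0.84, rho = 0.85). For SMARCAD1 it was ENSBTAG00000003747 (r = 0.91), for STX7 ENSBTAG00000013211 (r = 0.83), for BAP1 ENSBTAG00000045785 (r = 0.88), for C3H1orf122 ENSBTAG00000018599 (r = 0.85) and for C25H7orf50 ENSBTAG00000009079 (r = 0.81). ENSBTAG00000048798 was matched by ENSBTAG00000003438 (r = 0.89) and ENSBTAG00000008435 by ENSBTAG00000005314 (r = 0.89). The lowest r of a member with any gene was −0.90, between ENSBTAG00000008435 and ENSBTAG00000043568. The genes of lowest r were ENSBTAG00000006201 for C3H1orf122 (r = −0.88), ENSBTAG00000000266 for C25H7orf50 (r = −0.73), ENSBTAG00000010408 for SMARCAD1 (r = −0.79), ENSBTAG00000013401 for STX7 (r = −0.71) and ENSBTAG00000008967 for BAP1 (r = −0.80). For ENSBTAG00000051259 that gene was ENSBTAG00000026848 (r = −0.78), for ENSBTAG00000044063 ENSBTAG00000011236 (r = −0.84) and for ENSBTAG00000048798 ENSBTAG00000012525 (r = −0.67). Spearman's rho of these matches ran from 0.74 to 0.91 for the genes most alike and from −0.91 to −0.59 for those least alike. The median absolute r of a member with all tested genes was 0.17 to 0.28.

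A first principal component, taken over the 500 genes that varied most and holding 43.3% of their variance, and the depth of the libraries moved with some members. ENSBTAG00000008435 had an r of −0.69 with this component and of 0.76 with the log2 total count over the 22 heifers, breed and fertility group taken out, and BAP1 had −0.23 and 0.68. C3H1orf122 had −0.28 and 0.46, and C25H7orf50 −0.30 and 0.28. Of the members higher in Holstein heifers, SMARCAD1 had 0.11 and 0.32, STX7 0.12 and 0.32, ENSBTAG00000051259 0.05 and 0.34, ENSBTAG00000044063 0.46 and 0.16, and ENSBTAG00000048798 0.37 and 0.25. With the component in the model the breed log2 fold changes were −0.12 for both ENSBTAG00000008435 and BAP1, 0.24 for SMARCAD1, 0.21 for STX7, 0.36 for ENSBTAG00000044063 and −0.42 for C3H1orf122. With the log2 total count in the model instead, the changes were −0.13 for ENSBTAG00000008435, −0.10 for BAP1, −0.43 for C3H1orf122 and −0.28 for C25H7orf50. They were 0.29 for SMARCAD1, 0.26 for STX7, 0.88 for ENSBTAG00000051259, 0.53 for ENSBTAG00000044063 and 0.27 for ENSBTAG00000048798. The part of depth and of this component in the breed differences was not tested further.

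The genes around 3 of the members were looked at by lists. Gene names were at hand for 1229 tested genes, those with the smallest p-values for fertility in the authors' comparison, so the lists are seen in part. Of these named genes 13.3% were higher and 7.08% lower in Holstein heifers at an unadjusted p under 0.05 in edgeR. Their median log2 fold change was 0.02. Each list below counts its own member, which the breed comparison chose. Its counts and median are thus a description, and nothing is read from them against these shares. Of 15 genes of the BAP1 deubiquitinase complex and its partners, 5 could be found (BAP1, MBD6, BARD1, BRCA1 and YY1). BAP1 itself was the 1 gene lower at this p and 0 were higher, with a median of 0.07. YY1, a DNA-binding partner of BAP1, was at 0.07 ± 0.041 (SE) and MBD6, of the methyl-binding family, at 0.04 ± 0.073.

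Of 33 SNF2 remodelers and partners of SMARCAD1, 7 could be found, 3 of them higher in Holstein heifers at an unadjusted p under 0.05 and 0 lower, with a median log2 fold change of 0.10. Beside SMARCAD1 these were ATRX, a remodeler of heterochromatin, at 0.21 ± 0.087 (SE; edgeR unadjusted p 0.0215), and HLTF, a remodeler at stalled replication forks, at 0.26 ± 0.119 (SE; edgeR unadjusted p 0.0433). ATRX averaged 130 ± 21.2 CPM (SD, n = 12) in Angus and 149 ± 18.8 CPM (SD, n = 10) in Holstein heifers. The other 4 (CHD2, CHD8, RAD54L and TTF2) had log2 fold changes of −0.03 to 0.10. Of 38 endosomal and lysosomal SNARE and tether genes around STX7, 7 could be found, 2 of them higher at this p and 0 lower, with a median of 0.10. The second was STX12, a syntaxin of recycling endosomes, at 0.19 ± 0.065 (SE; edgeR unadjusted p 0.00774), with 42.7 ± 4.05 CPM in Angus and 48.3 ± 6.82 CPM in Holstein heifers (SD, n = 12 and 10). STX17, a syntaxin of autophagosomes, was at 0.12 ± 0.076 and SNAP47 at −0.11 ± 0.056. None of these genes had an adjusted p under 0.05 in edgeR, where the lowest over all genes was 0.437.

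White blood cells hold many cell types, so their markers are given beside the members. Of 73 marker genes of 8 cell types, 8 could be found by name, and none of those for monocytes, T cells, natural killer cells or red cells could. Whether the markers of those 4 types were present was thus not seen, and the labelled mixture could be checked in part only. The summed abundance of 3 neutrophil markers (CSF3R, MMP9 and TGM3) ranged from 229 to 527 CPM (median 295) in Angus and from 118 to 650 CPM (median 271) in Holstein heifers. BANK1, of B cells, ranged from 245 to 380.1 CPM (median 335) in Angus and from 238 to 512 CPM (median 391) in Holstein heifers, a log2 fold change of 0.25 ± 0.099 (SE; edgeR unadjusted p 0.0178, adjusted p 0.437). The sum of CCR3 and FCER1A, of eosinophils and basophils, ranged from 37.2 to 73.4 CPM in Angus and from 31.3 to 73.0 CPM in Holstein heifers. That of ITGA2B and GP9, of platelets, ranged from 33.1 to 68.8 and from 33.8 to 73.1 CPM. The part of the cell mixture in the breed differences of the 9 transcripts was not tested.

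The choice of the members itself depended on single heifers. When each heifer was left out in turn, DESeq2 called between 0 genes (without heifer 2 or without heifer 11) and 383 genes (without heifer 1) for breed, and between 0 and 9 of the members. C3H1orf122 was called in 15 of 22 such fits and had no adjusted p in the other 7, where it fell under the filter of DESeq2 on low means. SMARCAD1, ENSBTAG00000044063 and ENSBTAG00000048798 were called in 10 fits, C25H7orf50 and STX7 in 9, BAP1 in 7 and ENSBTAG00000008435 in 6. ENSBTAG00000051259 was called in 2, was not called in 9 and had no adjusted p in 11. In all 22 fits each member had an unadjusted p under 0.001 in DESeq2. These fits reuse the test and nearly all of the heifers that chose the members, so this is no independent support. With the first principal component as a covariate, or with close pairs as blocks, DESeq2 called 0 genes and so none of the members. All 9 kept the sign of their breed difference in every fit named here.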

How the data were processed

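Transcript abundance was measured in white blood cells of 22 heifers, 1 library each, and heifers were grouped by the breed and phenotype in the sample labels. According to the methods and the submitters' processing notes, the authors used HISAT2 to align reads to ARS-UCD1.2, SAMtools and biobambam2 to drop duplicates and other unwanted alignments, and featureCounts to count fragments per gene. The deposited values are raw whole-number counts with no normalization. Versions of these tools were not given in the sources used here. Columns of the authors' own comparisons were not used, apart from gene names and positions that stand beside them.

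Genes were kept where at least 5 heifers exceeded a CPM of 1 (TMM-scaled). In edgeR 4.0.16 (R 4.3.3) a model was fitted to breed and fertility group, with total counts as library sizes and robust estimation. Coefficients were tested by the quasi-likelihood F test with Benjamini-Hochberg adjustment over all tested genes, and the interaction in a model that held it. A standard error is the size of a log2 fold change divided by the square root of its F. DESeq2 1.42.0 gave the Wald test. Independent filtering in DESeq2 leaves some genes without an adjusted p, and these were counted apart. The edgeR steps were tested on counts simulated with known changes. At an adjusted p under 0.05 they called 9 of 50 genes changed 1.2-fold for breed. For fertility they called 6 of 50 and for the interaction 0 of 50. With a 2-fold change the calls were 46, 46 and 32 of 50. Differences near 1.2-fold were thus mostly missed in the simulation.

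Close pairs are heifers each nearest to the other, with a biological coefficient of variation (genes with a mean CPM above 20) under 0.5 of the median pairing. With pairs as blocks, breed and fertility were estimated within pairs, and the 6 unpaired heifers carried no weight. Correlations used log2(CPM + 0.5), a pseudocount of 0.5. Counting error is 1 over the square root of the count and covers counting only.

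The members and gene lists were chosen with earlier results of these data known. Genes named in the text are the members, DNAI7, the first gene outside the threshold, the genes most and least like each member, the list genes of smallest p for breed, and the cell type markers. CHD2, CHD8, RAD54L, TTF2, STX17, MBD6, BRCA1, YRDC and the other overlapping genes were named after their values or positions were seen. Nearest neighbours of the members on the chromosome were analysed for SEMA3G alone, since the other neighbours had no name that could be joined to the identifiers of the counts. Alternatives were TMM factors, other filters, estimation that was not robust, DESeq2, added covariates, close pairs as blocks, and leaving out heifers. Nothing in the labels says that heifers were sampled more than once, and p-values measure the spread between these heifers. Figures were drawn with matplotlib 3.10.9.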

Additional observations from a re-analysis of the deposited data

Results flagged for a closer look

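Among the values of the 9 transcripts in the 4 groups, a heifer far from the rest of its group was seen in 2 of 36 cases, and chance marks about 1 in 20. SMARCAD1 was at 57.0 CPM in Angus Sub-Fertile heifer 12, with the other 6 heifers of the group between 45.5 and 47.4 CPM. Heifer 12 forms a close pair with Holstein heifer 8, which was the highest of the Fertile Holsteins at 61.7 CPM. ENSBTAG00000048798 was at 245 CPM in Angus Sub-Fertile heifer 14, with the other 6 heifers between 282 and 306 CPM. Heifer 14 forms a close pair with Angus Fertile heifer 20, at 233 CPM. What set these heifers apart was not tested.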

How the results depend on the processing

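The breed log2 fold changes of the 9 members kept their sign in all 288 combinations of a member with an alternative, and 6 of these, all with close pairs as blocks, moved by more than the spread between heifers (1 residual SD). The number of tested genes at an unadjusted p under 0.05 for breed, 1440 in edgeR, was 488 after adding the first principal component, 233 with close pairs as blocks and between 1021 and 2191 when single heifers were left out, the latter without heifer 1. DESeq2 called 10 genes at an adjusted p under 0.05 where edgeR called 0. With the component, and with blocks, DESeq2 called 0 genes for breed and so 0 members. With single heifers left out it called 0 to 9 members among 0 to 383 genes. These DESeq2 alternatives were chosen after seeing the data. Members at an unadjusted p under 0.05 for fertility numbered 1 with blocks, 0 with no breed term, 5 by DESeq2 and 1 to 5 with single heifers left out, and those for the interaction 0 to 1. Members without overlap of the breeds numbered 1 in Sub-Fertile and 2 in Fertile heifers with TMM factors, 1 and 2 with size factors, and 0 to 2 and 1 to 5 with single heifers left out. For fertility, interaction and overlap the share of all tested genes was not computed under these alternatives, apart from the DESeq2 tests. Nothing about the members is read from these counts. The cause of the changes between alternatives was not tested.

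Some signs turned. The fertility log2 fold change became 0.0200 for SMARCAD1 (−0.13 over all heifers) and 0.0121 for ENSBTAG00000044063 (−0.16 over all heifers) with blocks, and the cause was not tested. The interactions that turned were smaller than their errors over all heifers. The interaction of C25H7orf50 became −0.0318 with blocks and −0.0342 without heifers 10 and 18, and ran from −0.0209 to 0.0867 with single heifers left out. That of SMARCAD1 became 0.0265 with TMM factors, 0.0382 with log2 total counts in the model, 0.0223 without heifers 10 and 18 and 0.00269 by DESeq2, and ran from −0.0789 to 0.0416. That of BAP1 became 0.00883 with log2 total counts and 0.0296 with blocks. ENSBTAG00000051259 had −0.0292 without heifers 10 and 18 and −0.0528 to 0.292 with single heifers left out, ENSBTAG00000044063 had −0.116 with the component and −0.105 to 0.157, and ENSBTAG00000048798 had −0.00965 with the component and −0.0396 to 0.0887. No paired analysis by replicate number was possible because the labels number the heifers 1 to 22 with no number shared between groups. ENSBTAG00000051259 had as few as 9 fragments, with a counting error of 14.4% at the median heifer beside a coefficient of variation of 28.5% between heifers.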
